A study of Mus musculus with 16 samples.

Results

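Clec14a, Cd93, Lpar6, Itm2a, Ctla2a and Itih5 are 6 vessel-associated genes, out of 21804 genes in the table, whose levels were higher in the cortex of Pdgfb ret/ret mice than in that of Pdgfb ret/wt mice. They were picked by symbol with the cortex comparison of these same libraries already known, so the cortex values below describe the choice and carry no test. The label under which they were picked calls them endothelial surface genes, which fits Clec14a, Cd93, Lpar6 and Itm2a, all encoding membrane proteins. Ctla2a and Itih5 do not encode membrane receptors.

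The libraries came from 8 C57BL/6 mice aged 4 months, each giving 1 cortex and 1 thalamus sample, in 4 groups of 4. The control mice carried 1 copy of the retention allele of the growth factor gene Pdgfb and the ret/ret mice carried it on both chromosomes, so no group lacked the allele. The allele is a germline one and is not limited to a cell type. The labels describe the thalamus pieces of ret/ret mice as autofluorescent calcifications cut out under a stereomicroscope, the ret/wt thalamus pieces were the matching region without calcification, and neither cortex group had calcifications. Genotype and the way of dissection therefore cannot be told apart in the thalamus.

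The retention motif holds PDGF-B near the endothelial cell that secretes it, where it recruits pericytes, the mural cells of capillaries. Mice lacking the motif have few pericytes on brain vessels. CLEC14A and CD93 are single-pass membrane proteins with a C-type lectin-like domain, found on endothelial cells and known from vessel sprouting and cell adhesion. CD93 is also made by myeloid cells. LPAR6 is a G protein-coupled receptor for lysophosphatidic acid, made by endothelial cells and also by microglia. ITM2A is a type II membrane protein with a BRICHOS domain. CTLA2A resembles the propeptide of cathepsin L and inhibits cysteine proteases, and both it and ITM2A are also known from T lymphocytes. ITIH5 is a secreted heavy chain of the inter-alpha-trypsin inhibitor family, which binds hyaluronan in the extracellular matrix.

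On GRCm38 with the GENCODE M21 annotation, all 6 genes are protein-coding. Clec14a (ENSMUSG00000045930) lies on chromosome 12 at 58264720 to 58269290, minus strand, as a single exon. Cd93 (ENSMUSG00000027435) lies on chromosome 2 at 148436640 to 148443563, minus strand. Itih5 (ENSMUSG00000025780) is on the same chromosome at 10153571 to 10256529, plus strand. Itm2a (ENSMUSG00000031239) lies on chromosome X at 107397099 to 107403376, minus strand. Ctla2a (ENSMUSG00000044258) lies on chromosome 13 at 60934155 to 60936625, minus strand, near its paralog Ctla2b. Lpar6 (ENSMUSG00000033446) lies on chromosome 14 at 73237895 to 73243294, plus strand, within Rb1 on the opposite strand.

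The bases upstream of the start sites of the 6 genes were compared as a description. Their common direction in cortex was set by the choice and is no sign of shared control. RefSeq windows on GRCm38.p6 were matched by symbol for Clec14a, Itm2a, Ctla2a, Lpar6 and Itih5, not for Cd93. Ctla2a has a window at each of 2 RefSeq starts, and the one further upstream was used. The 4 shown are those of Clec14a and Ctla2a, with the largest cortex differences, Itm2a, with the highest level per length, and Itih5, with the smallest difference in both regions. Each ends just before the start site that lies further upstream in RefSeq or GENCODE, and capitals mark GGAAG or its reverse complement, the core letters bound by ETS factors such as FLI1; the Ctla2a and Itih5 windows hold none.
Clec14a, chr12:58269291-58269508, minus strand: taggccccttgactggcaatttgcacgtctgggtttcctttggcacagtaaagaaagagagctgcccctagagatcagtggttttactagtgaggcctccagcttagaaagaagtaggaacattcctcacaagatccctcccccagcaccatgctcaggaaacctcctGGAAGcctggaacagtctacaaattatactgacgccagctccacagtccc
Itm2a, chrX:107403377-107403610, minus strand: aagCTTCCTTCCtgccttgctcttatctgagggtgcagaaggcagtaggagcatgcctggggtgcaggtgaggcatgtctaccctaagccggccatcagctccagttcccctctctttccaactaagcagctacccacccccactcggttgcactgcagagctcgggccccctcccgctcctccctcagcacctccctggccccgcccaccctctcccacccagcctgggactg
Ctla2a, chr13:60936626-60936875, minus strand: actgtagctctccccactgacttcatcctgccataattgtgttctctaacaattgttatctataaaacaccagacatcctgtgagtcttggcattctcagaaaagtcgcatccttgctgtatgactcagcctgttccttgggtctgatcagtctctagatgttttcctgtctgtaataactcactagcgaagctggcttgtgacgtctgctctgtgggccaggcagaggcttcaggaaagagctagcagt
Itih5, chr2:10153293-10153542, plus strand: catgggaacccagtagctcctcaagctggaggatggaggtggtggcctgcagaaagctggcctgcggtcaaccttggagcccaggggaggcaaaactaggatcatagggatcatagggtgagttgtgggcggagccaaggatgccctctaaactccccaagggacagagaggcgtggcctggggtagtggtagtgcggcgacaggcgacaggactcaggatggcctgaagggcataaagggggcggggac

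Searched on both strands over the 250 bases before the RefSeq start, GGAAG occurred in 2 of the 5 windows, those of Clec14a and Itm2a, and in 64.1% of 32851 promoter windows of this length. The SOX core ACAAT occurred in the Clec14a and Ctla2a windows, or 2 of 5, against 27.7% of all. The KLF core CACCC occurred in 4 of 5 against 52.0%, and the GATA core GATAA in 3 of 5 against 22.6%. The Clec14a matches to ACAAT and CACCC start at -22 and -13 from the RefSeq start. They lie downstream of the GENCODE start, in the 32 bases left out of the Clec14a window shown. The TATA box letters TATAAA occurred in the Ctla2a window alone of the 5, against 12.4% of all. At the other Ctla2a start, GGAAG was present as well. GATAA and TATAAA share the letters ATAA, no motif is contained in another, and a match describes letters only. No motif was present in all 5 windows.

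The table held expected counts, the reads estimated per gene, with 13415391 to 29135064 per library. Values below are CPM, counts scaled to library size, with TMM factors from all 16 libraries, with a floor of 3 counts at 0.103 to 0.224 CPM that covers counting error only. The 6 genes were above that floor in every library. The animals with Y-linked reads, ret/wt replicate 3 and ret/ret replicate 2, had Ddx3y at 55.2 CPM or more, against 0.219 or less elsewhere. In these bulk samples, more endothelial cells and more RNA per endothelial cell cannot be told apart.

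In ret/ret cortex all 6 genes were higher than in ret/wt cortex, and for each of them the 4 ret/ret libraries lay above the 4 ret/wt libraries. The fold differences ran from 1.95 for Itih5 to 6.55 for Clec14a. Over all 14288 genes tested in cortex, 1.58% were higher in ret/ret with no overlap between the groups, and 2.62% were higher at an unadjusted p under 0.05 in edgeR. After Benjamini-Hochberg adjustment at the same threshold, 0.0140% were higher and 0.00700% lower, and 0 of the 6 genes were among them. DESeq2 called 6 of the 6 higher in cortex, against 0.209% of all genes. Ordered by edgeR's p-value in cortex, they ranked 5 (Ctla2a), 6 (Clec14a), 7 (Itm2a), 8 (Lpar6), 11 (Cd93) and 13 (Itih5). Since cortex chose them, nothing is read from these ranks and counts.

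Clec14a showed the widest difference of the 6 in cortex. It was at 4.00, 4.68, 2.55 and 3.58 CPM in ret/wt cortex replicates 1 to 4 and at 43.3, 14.3, 21.5 and 16.5 CPM in ret/ret cortex. Replicate 1 of ret/ret stood above the other 3, and even the lowest ret/ret library was higher than every ret/wt library. The log2 fold change was 2.71 ± 0.39 (SE), and 2.25 without ret/ret cortex replicate 1. Cd93, of the same lectin family, was at 7.69, 8.11, 9.23 and 5.38 CPM in ret/wt cortex and at 25.3, 15.7, 21.8 and 15 CPM in ret/ret cortex. Replicate 1 was again the highest ret/ret library, and the log2 fold change was 1.38 ± 0.25 (SE).

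Lpar6, the receptor with the lowest counts of the 6, was at 1.88, 2.05, 1.41 and 2.39 CPM in ret/wt cortex. In ret/ret cortex it was at 7.91, 5.98, 8.62 and 6.84 CPM. The libraries within a genotype lay close together, and the log2 fold change was 1.94 ± 0.29 (SE). Rb1, the gene around it, averaged 28.1 ± 6.06 CPM (SD, n = 4) across ret/wt cortex libraries and 33.3 ± 2.40 CPM (SD, n = 4) across those of ret/ret cortex. Of the 31-base words in the Lpar6 transcript, 6.57% also occur in Rb1 transcripts on one strand or the other, and whether the counting used the strand is not given in the sources used here.

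Itm2a was at 40.8, 43.0, 35.5 and 28.5 CPM in ret/wt cortex and at 102, 98.3, 76.3 and 79.1 CPM in ret/ret cortex. The gap between the groups was wide, and the log2 fold change was 1.29 ± 0.18 (SE). The gene is X-linked, and without the animals with Y-linked reads the value was 1.21 ± 0.22 (SE). Ctla2a was at 3.61, 6.28, 6.11 and 2.61 CPM in ret/wt cortex and at 25.7, 18.9, 22.3 and 20.2 CPM in ret/ret cortex. The 4 ret/ret libraries were close to each other, with a log2 fold change of 2.24 ± 0.30 (SE). Itih5, the matrix protein gene, was at 46.6, 37.3, 49.0 and 45.4 CPM in ret/wt cortex and at 92.1, 96.0, 94.2 and 61.8 CPM in ret/ret cortex. Replicate 4 of ret/ret lay nearer to the ret/wt libraries than the other 3 did, and the log2 fold change was 0.97 ± 0.18 (SE).

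Reads of Ctla2a are shared in part with other gene models, so its level is uncertain. Of its 31-base words, 20.8% occur in Ctla2b transcripts and 22.8% in those of the overlapping model Gm49391. Ctla2b averaged 0.707 ± 0.423 CPM (SD, n = 4) across ret/wt cortex libraries and 1.36 ± 0.490 CPM (SD, n = 4) across those of ret/ret cortex. The sum of both genes was 2.88 to 7.39 CPM in ret/wt and 21 to 26.6 CPM in ret/ret cortex, and on that sum the groups were apart as well. Counted over all other genes together, the shared words were 37.8% for Ctla2a, 8.49% for Lpar6, 2.05% for Cd93 and 0.50% for Itih5. Clec14a and Itm2a shared none of their words with another gene.

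**Figure D1:**
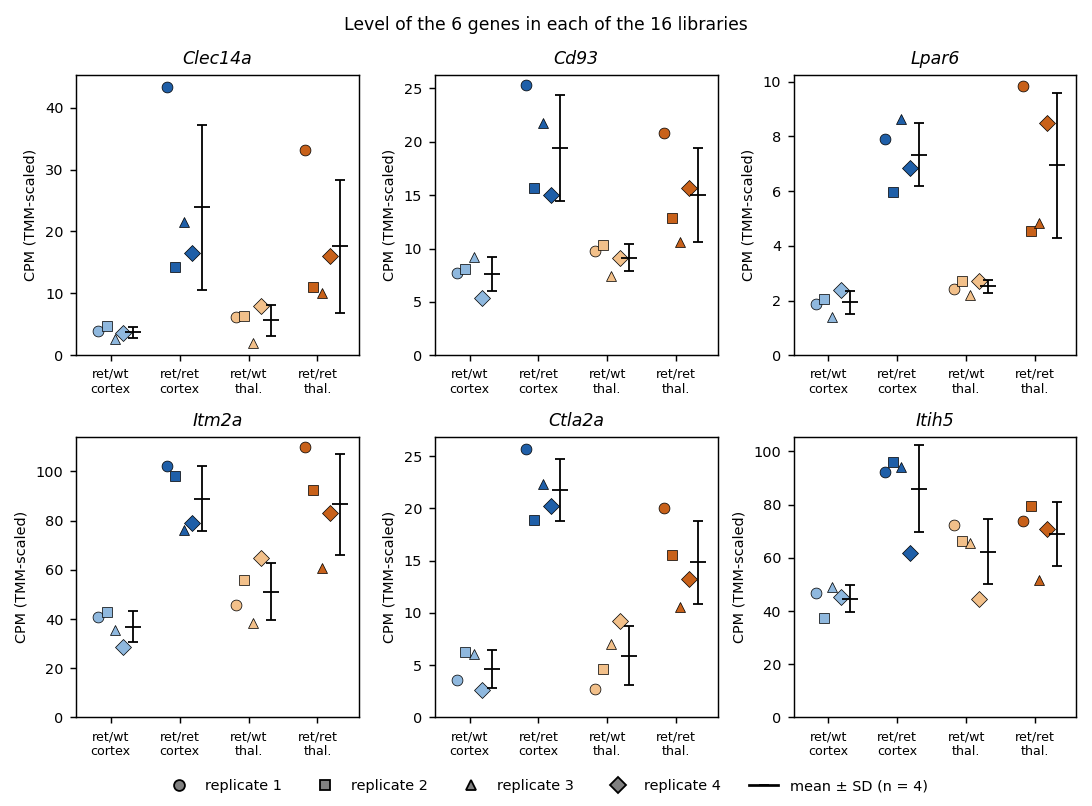
Level of each of the 6 genes in TMM-scaled CPM (vertical axes from 0, different scales), with 1 point per library, the marker giving the replicate and the bar the mean ± SD of 4 libraries. In cortex, whose values chose the genes, the groups are apart for all 6 genes, and in thalamus the groups overlap for Itm2a and Itih5. Of all genes tested, 1.58% in cortex and 1.70% in thalamus had groups apart with ret/ret higher.

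The name under which the genes were picked refers to cortex, and the thalamus libraries came from the same 8 animals. Earlier results of the thalamus libraries were known too, and whether they bore on the choice is not recorded, so the p-values below are not independent evidence. There, 6 of the 6 genes had a log2 fold change above 0, as did 47.1% of the 14767 genes tested. With p-values from edgeR adjusted over all genes, 0 of the 6 passed 0.05, and so did 0 of all genes tested (0% higher and 0% lower). At an unadjusted p under 0.05, edgeR had 5 of the 6 genes higher in ret/ret, against 3.05% of all genes tested. The 4 ret/ret libraries lay above the 4 ret/wt libraries for 4 of the 6 genes (Clec14a, Cd93, Lpar6 and Ctla2a), against 1.70% of all genes. The 6 genes share libraries and may share a cell type, so they do not count as 6 separate tests.

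Lpar6 had the smallest p of the 6 in thalamus. Its values were 2.42, 2.72, 2.21 and 2.71 CPM in ret/wt thalamus and 9.84, 4.56, 4.85 and 8.50 CPM in ret/ret thalamus. Every ret/ret library was higher than every ret/wt library, with replicates 1 and 4 well above replicates 2 and 3. The log2 fold change was 1.5 ± 0.34 (SE; 95% interval 0.74 to 2.26), with an unadjusted p of 0.00135 and, adjusted over all genes, 0.729 in edgeR. In DESeq2, which called 1 of the 6 genes against 0.151% of all genes, its adjusted p was 0.0244, and this p ran from 0.0244 to 1.0 over the 19 alternatives.

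Clec14a was at 6.26, 6.38, 2.03 and 7.95 CPM in ret/wt thalamus and at 33.1, 11.1, 10 and 16.1 CPM in ret/ret thalamus. Replicate 1 of ret/ret, the animal that was also highest in cortex, was far above the others. The log2 fold change was 1.67 ± 0.49 (SE; 95% interval 0.58 to 2.76), with an unadjusted p of 0.00646 and an adjusted p of 1 in edgeR. Without ret/ret thalamus replicate 1 it was 1.15. Cd93 was at 9.76, 10.3, 7.41 and 9.11 CPM in ret/wt thalamus and at 20.8, 12.9, 10.6 and 15.7 CPM in ret/ret thalamus. The lowest ret/ret library was just above the highest ret/wt library, and the log2 fold change was 0.75 ± 0.26 (SE; 95% interval 0.18 to 1.32), with an unadjusted p of 0.0145 and an adjusted p of 1 in edgeR.

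Ctla2a was at 2.72, 4.60, 7.06 and 9.24 CPM in ret/wt thalamus and at 20, 15.5, 10.6 and 13.2 CPM in ret/ret thalamus. Both groups were spread widely without overlapping. The log2 fold change was 1.35 ± 0.39 (SE; 95% interval 0.49 to 2.22), with an unadjusted p of 0.00583 and an adjusted p of 1 in edgeR. The sum of Ctla2a and Ctla2b was 3.07 to 10.5 CPM in ret/wt and 11.6 to 21.2 CPM in ret/ret thalamus.

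Itm2a was at 45.5, 56.0, 38.5 and 64.7 CPM in ret/wt thalamus and at 110, 92.5, 60.7 and 83.2 CPM in ret/ret thalamus. The groups overlapped, because ret/ret replicate 3 lay below ret/wt replicate 4. The log2 fold change was 0.79 ± 0.24 (SE; 95% interval 0.25 to 1.33), with an unadjusted p of 0.00829 and an adjusted p of 1 in edgeR. Itih5 was at 72.5, 66.4, 65.5 and 44.5 CPM in ret/wt thalamus and at 73.9, 79.3, 51.8 and 70.8 CPM in ret/ret thalamus. Here the genotypes were mixed, with a log2 fold change of 0.19 ± 0.20 (SE; 95% interval -0.26 to 0.63), an unadjusted p of 0.376 and an adjusted p of 1 in edgeR.

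Set side by side, the log2 fold changes in cortex and thalamus were 2.71 and 1.67 for Clec14a, 1.38 and 0.75 for Cd93, and 1.94 and 1.5 for Lpar6. They were 1.29 and 0.79 for Itm2a, 2.24 and 1.35 for Ctla2a, and 0.97 and 0.19 for Itih5. The thalamus effect minus the cortex effect, from a fit over all 16 libraries, was lowest for Clec14a at -1.06 ± 0.64 (SE). It was -0.89 ± 0.49 (SE) for Ctla2a, -0.80 ± 0.27 (SE) for Itih5 and -0.64 ± 0.35 (SE) for Cd93. For Itm2a it was -0.51 ± 0.30 (SE) and for Lpar6 -0.46 ± 0.41 (SE). The fit had no term for the animal, so these SEs leave out the pairing of the regions within animals. Without ret/wt replicate 4 the difference was -0.39 for Ctla2a and -0.27 for Itm2a, and without ret/ret replicate 3 it was -0.23 for Lpar6. All 6 differences were below 0, as were 55.6% of those of all 15286 genes. More of the endothelial reference genes described below were below 0 than above it. A choice made on high cortex values pulls the differences of the 6 genes below 0. For that reason they are given with no test.

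**Figure D2:**
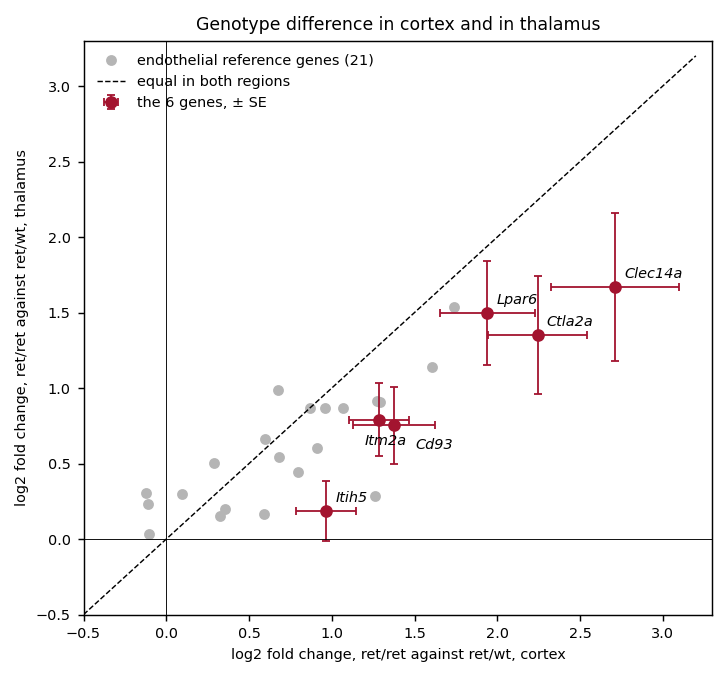
Log2 fold change of ret/ret against ret/wt in cortex (horizontal axis) and thalamus (vertical axis) for the 6 genes (red, ± SE) and 21 endothelial reference genes (grey), with a dashed line where both are equal. All 6 genes lie below the line, and of these Itih5 lies lowest, at 0.97 in cortex and 0.19 in thalamus. More of the reference genes lie below the line than above it.

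The regions were also compared within each genotype. In ret/wt mice, Itih5 was at 44.6 ± 5.07 CPM in cortex (SD, n = 4) and 62.2 ± 12.2 CPM in thalamus (SD, n = 4). In ret/ret mice the means were in the other order, at 86 ± 16.2 CPM in cortex (SD, n = 4) and 68.9 ± 12 CPM in thalamus (SD, n = 4). The log2 fold change of thalamus against cortex for Itih5 was 0.49 ± 0.19 (SE) in ret/wt and -0.32 ± 0.19 (SE) in ret/ret. For all 6 genes this value was above 0 in ret/wt, from 0.28 for Cd93 to 0.63 for Clec14a, and below 0 in ret/ret, from -0.03 for Itm2a to -0.55 for Ctla2a. These region values come from fits with no term for the animal. They share the cortex libraries that chose the genes and so carry no test.

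Cortex and thalamus were then compared within each animal. Clec14a and Ctla2a were lower in thalamus than in cortex in 4 of 4 ret/ret animals, by a mean of -0.47 ± 0.45 and -0.58 ± 0.35 log2 CPM (SD, n = 4). Cd93 and Itih5 were lower in 3 of 4 ret/ret animals, and Itm2a and Lpar6 in 2 of 4. Among ret/wt animals, Itm2a and Lpar6 were higher in thalamus in 4 of 4, Clec14a, Cd93 and Itih5 in 3 of 4 and Ctla2a in 2 of 4. These differences subtract the cortex values that chose the genes, which pulls them below 0 in ret/ret and above 0 in ret/wt. The counts of animals therefore describe the choice and carry no test.

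Scaled to exon length (CPM per kilobase of merged GENCODE exons), Itm2a had the highest level of the 6 in every group. In ret/wt cortex its level was 21.2 ± 3.71 (SD, n = 4), followed by Itih5 at 5.65 ± 0.641 and Ctla2a at 2.21 ± 0.869. Cd93 at 1.14 ± 0.243, Clec14a at 0.810 ± 0.195 and Lpar6 at 0.358 ± 0.0756 came last, and the ranges of Cd93 and Clec14a overlapped. In ret/ret cortex Itih5 at 10.9 ± 2.06 and Ctla2a at 10.3 ± 1.40 were within their spread of each other. Clec14a, at 5.23 ± 2.91, had a higher mean there than Cd93, at 2.92 ± 0.741, with overlapping ranges. Lpar6 had the lowest mean in all 4 groups. Whether the deposited counts had already been scaled for transcript length is not given in the sources used here, which limits what a level per kilobase means here.

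Markers of the labelled cell type were present. Of 22 endothelial reference genes (such as the junction genes Pecam1 and Cdh5 and the receptor genes Tie1 and Flt1), 21 were in the table, and none was at 0 counts throughout a group. Their mean log2 CPM, used as a reference score, was 2.99 to 3.62 in ret/wt cortex and 3.74 to 4.42 in ret/ret cortex, with no overlap. In thalamus it was 3.11 to 3.91 in ret/wt and 3.68 to 4.68 in ret/ret, with overlap. The mean score was higher in ret/ret in both regions, and its part in the values of the 6 genes is described below.

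Of the 21 reference genes tested in cortex, 18 had a log2 fold change above 0, against 51.8% of all genes tested. Groups were apart with ret/ret higher for 6 of the 21, against 1.58% of all genes, and 0 passed the adjusted threshold in edgeR. The median log2 fold change was 0.68, against 1.66 for the 6 genes and 0.012 for all genes tested. In thalamus 21 of 21 were above 0, against 47.1% of all genes tested, and 0 passed. Groups were apart with ret/ret higher for 1 of the 21, against 1.70% of all genes. The thalamus median was 0.54, against 1.07 for the 6 genes and -0.018 for all. Pecam1 had a log2 fold change of 0.68 ± 0.33 (SE) in cortex and 0.54 ± 0.36 (SE) in thalamus, with adjusted p-values of 0.999 and 1 in edgeR. For Cdh5 the log2 fold changes were 0.67 ± 0.40 and 0.99 ± 0.49 (SE), and for Tie1 0.91 ± 0.32 and 0.60 ± 0.34 (SE), none of them passing. Chosen after their values were seen, the reference genes with the largest cortex log2 fold changes were Eng at 1.74 ± 0.35 (SE), Adgrl4 at 1.61 ± 0.34 (SE) and Kdr at 1.29 ± 0.33 (SE), at or above those of Itm2a and Itih5. In thalamus Eng, which encodes the TGF-beta co-receptor endoglin, was at 1.54 ± 0.31 (SE), with an unadjusted p of 0.000604 in edgeR, smaller than that of any of the 6 genes, and an adjusted p of 0.629. Flt1 was at -0.11 ± 0.23 (SE) in cortex and 0.23 ± 0.25 (SE) in thalamus.

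Each gene was then set against the reference score of its own library, as log2 CPM minus the score. In cortex, whose values chose the genes, 4 of the 6 were apart between genotypes on this scale, against 0.161% of all genes tested, and nothing is read from that count. Clec14a was at -1.61 to -1.20 in ret/wt cortex and 0.08 to 1.02 in ret/ret cortex, a difference of means of 1.86. Ctla2a was at -1.75 to -0.37 and 0.27 to 0.60, a difference of 1.59, and Lpar6 was at -2.67 to -1.77 and -1.42 to -0.92, a difference of 1.21. For Itm2a the difference was 0.57, from 1.73 to 2.16 in ret/wt and 2.21 to 2.86 in ret/ret. Cd93, with a difference of 0.64, and Itih5, with 0.23, overlapped between genotypes.

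In thalamus 2 of the 6 genes were apart on this scale, against 0.264% of all genes tested. The mean score was 0.56 higher in ret/ret thalamus, so subtracting it lowers every gene that did not rise with it. The share of all genes is thereby below the 1.70% on the CPM scale, and nothing is read from the count. Clec14a was at -2.05 to -0.80 in ret/wt and -0.40 to 0.37 in ret/ret thalamus, a difference of 1.06. Lpar6 was at -2.44 to -1.93 and -1.67 to -0.93, a difference of 0.81. Ctla2a differed by 0.86, Itm2a by 0.20 and Cd93 by 0.12, all with overlap, and Itih5 was lower in ret/ret by -0.41, also with overlap. With the reference score as a covariate in the edgeR fit, the thalamus log2 fold changes were 0.50 for Clec14a, 0.95 for Lpar6, 0.92 for Ctla2a, 0.32 for Itm2a, 0.27 for Cd93 and 0.19 for Itih5. None passed the adjusted threshold, and all adjusted p-values were 0.967.

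**Figure D3:**
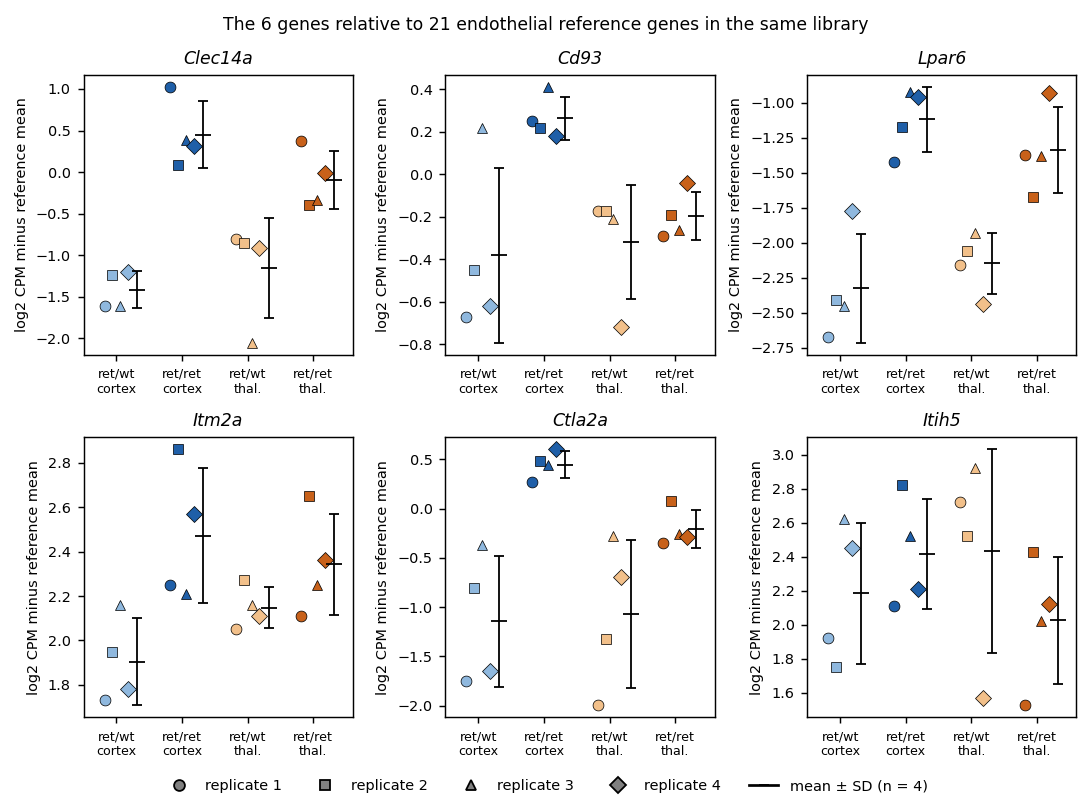
Log2 CPM of each of the 6 genes minus the mean log2 CPM of 21 endothelial reference genes in the same library (vertical axes on different scales), with 1 point per library and the mean ± SD of 4. Points of the genotypes do not overlap for Clec14a and Lpar6 in either region, nor for Itm2a and Ctla2a in cortex. The share of all genes apart with ret/ret higher is 0.161% in cortex and 0.264% in thalamus. The cortex values chose the genes, and the mean score was higher in ret/ret in both regions, which lowers these shares.

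The same libraries were often the extremes of their group. Replicate 1 of ret/ret was the highest library of its group for 4 of the 6 genes in cortex and for 5 of the 6 in thalamus, and it had the highest reference score in both regions, 4.42 and 4.68. In thalamus, ret/ret replicate 1 also held the top sum of its group for other lists described below. These included fibroblast and meningeal (369 CPM), pericyte (207 CPM), choroid plexus (83.8 CPM), microglia (489 CPM) and red blood cell genes (120 CPM). The capillary and barrier sum was highest in replicate 2, at 2070 CPM, and the T cell sum in replicate 3, at 8.15 CPM. Itih5 had its highest ret/ret value in replicate 2 in both regions, and Lpar6 in replicate 3 in cortex. Replicate 3 of ret/ret thalamus was the lowest library for 5 of the 6 genes, and its reference score, 3.68, was the lowest of that group.

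Genes of other endothelial classes and of other cells were compared with the same fits. The capillary and barrier list had a median log2 fold change of 0.17 in cortex and 0.16 in thalamus over 12 genes. The venous list stood at 0.21 and -0.17 over 7 genes and the arterial list at 0.28 and 0.22 over 8. In cortex 51.8% of all genes tested were above 0. So were 7 of 12 capillary and barrier genes, 4 of 7 venous and 6 of 8 arterial genes. Groups were apart with ret/ret higher for 2, 1 and 2 of these, against 1.58% of all genes. For 1 capillary and barrier gene they were apart with ret/ret lower. Picked after seeing them, the largest cortex log2 fold changes per list were 1.39 (Slco1a4), 1.91 (Vwf) and 1.47 (Bmx). Each was above those of Itm2a, Cd93 and Itih5. No gene of these lists passed the adjusted threshold in edgeR. The pericyte list had a median of -1.27 over 7 genes in cortex, with 1 gene (Rgs5) passing lower, and -0.98 over 9 genes in thalamus, with 0 passing.

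Several of the 6 genes are also known from immune cells or fibroblasts, so those lists were read beside them. The summed level of 8 microglia genes was 272 to 390 CPM in ret/wt cortex and 250 to 467 CPM in ret/ret cortex, overlapping. In thalamus it was 254 to 315 CPM in ret/wt and 374 to 489 CPM in ret/ret, with no overlap. There 8 of 8 microglia genes were above 0, against 47.1% of all genes tested, and 0 passed. Groups were apart with ret/ret higher for 4 of 8, against 1.70% of all genes. At an unadjusted p under 0.05 in edgeR, 6 of 8 were higher in ret/ret, against 3.05% of all genes. The part of microglia in the thalamus values of Lpar6 and Cd93 was not tested. The 7 blood myeloid genes in the table summed to 0.456 to 4.48 CPM over all 16 libraries, and Ly6g was at 0 counts in both ret/ret groups. The 8 T cell genes summed to 2.17 to 16.4 CPM in ret/wt and 7.62 to 18.7 CPM in ret/ret cortex, and to 2.38 to 5.49 CPM in ret/wt and 2.77 to 8.15 CPM in ret/ret thalamus. Those ranges overlapped in both regions.

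Fibroblast and meningeal genes, 8 in number, summed to 135 to 210 CPM in ret/wt and 75.8 to 179 CPM in ret/ret cortex. In thalamus they summed to 104 to 242 CPM and 90.8 to 369 CPM. Red blood cell genes summed to 2.71 to 22.7 CPM in ret/wt and 5.6 to 49.7 CPM in ret/ret cortex, and to 5.05 to 32.3 CPM and 11.9 to 120 CPM in thalamus, where ret/ret replicate 1 held the top value. Choroid plexus genes summed to 1150 CPM in ret/wt cortex replicate 4 against 10.5 to 69.4 CPM in the other 7 cortex libraries. Without that library the cortex log2 fold changes were 2.05 for Ctla2a and 1.18 for Itm2a, against 2.24 and 1.29. For Lpar6 the value moved the other way, to 2.07 against 1.94.

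**Figure D4:**
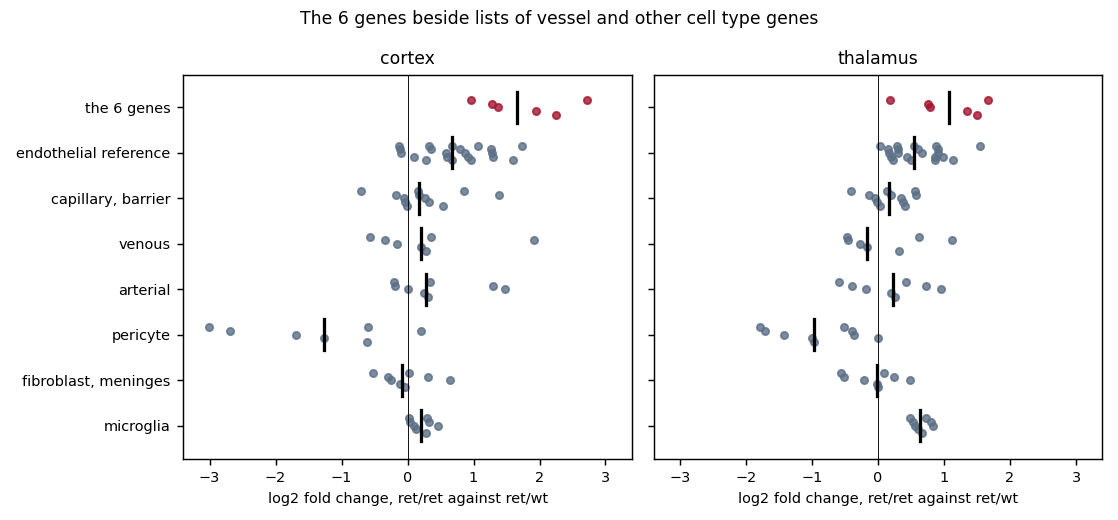
Log2 fold change of ret/ret against ret/wt for single genes (points) and the median of each list (black bar), in cortex (left) and thalamus (right). The median of the 6 genes is 1.66 in cortex and 1.07 in thalamus, that of the endothelial reference 0.68 and 0.54, and that of the pericyte list -1.27 and -0.98.

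Among relatives and partners of the 6 genes, none passed the adjusted threshold in edgeR in either region. Of 4 tested genes around the lectins Clec14a and Cd93 (their relatives Thbd and Cd248, the shared matrix ligand Mmrn2 and the matrix receptor Dag1), 0 had groups that did not overlap. Thbd, which encodes thrombomodulin, had log2 fold changes of -0.10 ± 0.37 (SE) in cortex and -0.15 ± 0.69 (SE) in thalamus. For Mmrn2 they were 0.11 ± 0.29 and 0.41 ± 0.32 (SE). The median of the list was -0.01 in cortex and 0.08 in thalamus.

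Around Lpar6, 7 genes of lysophosphatidic acid signalling were tested, and 0 passed. The receptor gene Lpar4, the closest in type, had log2 fold changes of 0.37 ± 0.46 (SE) in cortex and 0.40 ± 0.39 (SE) in thalamus, and Lpar1 0.49 ± 0.34 and 0.05 ± 0.23 (SE). Enpp2, encoding the enzyme that makes the ligand, stood at -0.56 ± 0.30 and 0.11 ± 0.21 (SE). Plpp3, encoding a phosphatase that breaks it down, stood at 0.23 ± 0.14 and 0.35 ± 0.24 (SE).

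Around Itih5, 6 genes of the inter-alpha-trypsin inhibitor and hyaluronan matrix list were tested, and 0 passed. Groups were apart for 1 of them, Tnfaip6 in thalamus, with ret/ret lower and a log2 fold change of -0.53 ± 0.22 (SE). Itih3 had log2 fold changes of 0.26 ± 0.51 (SE) in cortex and -0.48 ± 0.34 (SE) in thalamus. Cd44, a hyaluronan receptor gene, stood at 0.27 ± 0.62 and 1.29 ± 0.64 (SE). Around Itm2a, its paralogs Itm2b and Itm2c stood at 0.26 ± 0.24 and -0.19 ± 0.21 (SE) in cortex and at 0.12 ± 0.17 and 0.31 ± 0.23 (SE) in thalamus. Around Ctla2a, 8 genes were tested and 0 passed. Groups were apart with ret/ret higher for 1 of them in each region, against 1.58% of all genes in cortex and 1.70% in thalamus. These were Ctsh in cortex, at 0.65 ± 0.21 (SE), and Ctss in thalamus, at 0.715 ± 0.20 (SE). The paralog Ctla2b had log2 fold changes of 0.95 ± 0.51 (SE) in cortex and 0.84 ± 0.58 (SE) in thalamus, and Ctsl, encoding cathepsin L, 0.09 ± 0.20 and 0.07 ± 0.16 (SE).

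Across the 16 libraries, the gene most like the mean profile of the 6 was Edn1, which encodes the vasoconstrictor endothelin, with a Pearson r of 0.954 among 12760 genes compared. Edn1 was at 2.20 to 3.91 CPM in ret/wt cortex and 18.4 to 32.5 CPM in ret/ret cortex, and at 2.55 to 3.94 CPM and 9.07 to 21.4 CPM in thalamus. It was followed by Iigp1, an interferon-inducible GTPase gene, at 0.934, the metal transporter gene Slc39a8 at 0.931, the ligand gene Tnfsf10 at 0.917 and the endothelial phosphatase gene Ptprb at 0.914. Of single genes, Ctla2a and Lpar6 were most like Edn1 (0.935 and 0.918), Clec14a most like Iigp1 (0.956), Itm2a most like Slc39a8 (0.934) and Cd93 most like Tnfsf10 (0.951). Itih5 was most like the integrin gene Itga1 (0.847). These r values rest on 8 animals in 4 groups and hold the genotype difference itself. On deviations from the group means the nearest genes included Pecam1 (0.898), Plac9b (0.892), Bgn (0.878) and Itih2 (0.856), and the 5 nearest held 0 of the 5 genes above.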

How the data were processed

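Per the submitters' processing notes, kallisto 0.44.0 and the build GRCm38.p6 were used; how transcripts were summed to genes is not given in the sources used here. The deposited values are expected counts per Ensembl gene, not whole in 100.0% of nonzero values, and were rounded. Per the labels, RNA was polyA-selected and libraries were stranded. Every library comes from its own tissue piece, and the labels' animal identifiers pair the regions. Symbols matched 21581 identifiers (99.0%).

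Models were fitted over all genes in R 4.3.3 with edgeR 4.0.16 (quasi-likelihood, TMM, filterByExpr with a minimum count of 10 and total of 15, Benjamini-Hochberg at 0.05), limma 3.58.1 and DESeq2 1.42.0, and tested on simulated data. Each genotype comparison used its 8 libraries, and the difference between regions all 16. Log2 CPM used a prior count of 1. Tables and plots used Python 3.11.15, pandas 2.3.3, numpy 2.4.6 and matplotlib 3.10.9.

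The 6 genes and the lists were chosen with earlier results of these data known. Named besides them are relatives in the lists, Pecam1, Cdh5, Tie1 and Flt1, and the genes of highest likeness at a mean log2 CPM of at least 1. Rgs5, Eng, Adgrl4, Kdr, Slco1a4, Vwf and Bmx were named after their values were seen. Ambp, Has1, Erg and Retnlg were not analysed here. One gene of high likeness is not reported here. Alternatives were DESeq2, limma-voom, other scalings and filters, 1 fit of all libraries, a replicate block, the endothelial score as a covariate, and leaving out each library.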

Additional observations from a re-analysis of the deposited data

Results flagged for a closer look

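For 13 genes, the values of single libraries were checked in 4 groups of 4, and not all of these values are printed here. In 3 of 52 groups, a library's gap to its nearest neighbour exceeded Dixon's critical share of the group's range. Chance gives about 1 in 20. In replicate 4 of ret/ret cortex, Itih5 stood low at 61.8 CPM while the rest of the group lay at 92.1 to 96.0, and without that library its cortex log2 fold change was 1.08. In replicate 4 of ret/wt thalamus, Pecam1 stood high at 37.8 CPM while the rest lay at 22.5 to 23.6. In replicate 1 of ret/ret cortex, Tie1 stood high at 22.1 CPM while the rest lay at 12.4 to 13.6.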

How the results depend on the processing

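The 6 genes kept a log2 fold change above 0 in 114 of 114 values over 19 alternatives in cortex and in 114 of 114 in thalamus. In the main fits, 51.8% of all genes tested were above 0 in cortex and 47.1% in thalamus. The alternatives refit the same libraries and cortex chose the genes, so nothing is read from these counts. The number of the 6 genes with an adjusted p under 0.05 in thalamus was 1 in DESeq2 (Lpar6) and 0 in the other 18. With the endothelial reference score as a covariate, the median log2 fold change of the 6 genes was 0.41 in thalamus and 1.20 in cortex, against 1.07 and 1.66; this covariate itself differed between genotypes. Against Pecam1 and Cdh5 alone as reference, the median cortex difference relative to the reference was 1.01, against 0.92. The number of nearest genes shared when likeness was taken on deviations from group means was 0 of 5. Over all genes, DESeq2 called 50 genes in cortex and 36 in thalamus, against 3 and 0 in edgeR, the fit of all 16 libraries called 7 and 3, and leaving out 1 library gave 0 to 2 in cortex. Leaving out 1 library moved the median to 0.90 to 1.25 in thalamus and 1.56 to 1.74 in cortex, and leaving out 1 animal moved the difference between regions to -0.83 to -0.53, against -0.72. Without the animals with Y-linked reads, a setting chosen after seeing the data, the medians were 1.08 in thalamus and 1.73 in cortex.

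Equal replicate numbers across genotypes are different animals, with correlations of residuals of -0.125 to 0.151. With the replicate block the median was 1.10 in thalamus and 1.66 in cortex, and 0 genes of all tested passed in cortex, against 3. Pairing the regions by animal gave -0.72 for the difference between regions, 0.44 for thalamus against cortex in ret/wt and -0.35 in ret/ret, against -0.72, 0.44 and -0.34. Depth limits Lpar6 most, with 24 to 44 counts per ret/wt cortex library.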
